A study of Mus musculus with 2 samples.

Results

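A set of 10 integrin subunit genes that lets mesenchymal cells hold on to collagen, fibronectin and related matrix proteins was followed in primary mouse chondrocytes treated with recombinant Sparcl1 protein. They were chosen by symbol from the count table: Itga1, Itga2, Itga3, Itga5, Itga10, Itga11, Itgav, Itgb1, Itgb3 and Itgb5, which are 10 of its 21983 genes. All 10 were found, and all had at least 20 counts in both libraries together. The cells were wild-type primary chondrocytes, the cells that make cartilage, kept in medium with serum. Cells of the Sparcl1 group were exposed for 3 days to recombinant mouse Sparcl1, a secreted matricellular protein, at a dose of 50 ng/ml. Those of the PBS control group had phosphate-buffered saline for the same 3 days. There was 1 library per group, with 26871933 counts for Sparcl1 and 29858851 for the PBS control. The strain, the age and the number of animals are not stated in the labels.

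Integrins are cell-surface receptors made of an alpha and a beta subunit. The alpha subunit sets most of the ligand choice, and the receptor links the outside matrix to talin, kindlin and the actin skeleton. In cartilage, integrins anchor the chondrocyte to its collagen-rich matrix and pass on load and fragment signals. Itga1, Itga2, Itga10 and Itga11 encode the alpha subunits that bind collagen when paired with the beta subunit from Itgb1. Itga5 with Itgb1 forms the classical fibronectin receptor. Itgav pairs with Itgb1, Itgb3 or Itgb5 and binds proteins with the short RGD peptide motif, such as vitronectin and osteopontin. Itga3 is best known as a laminin receptor subunit, so it is kept apart from the collagen and fibronectin groups here.

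The largest differences among the 10 genes were modest and of opposite direction. Itga3 was 1.39-fold higher in the Sparcl1 library, while Itga1 was 1.29-fold lower and the rare Itga2 1.35-fold lower. Itga10, the collagen receptor subunit typical of chondrocytes, was 1.23-fold higher. Itga5, Itga11, Itgav, Itgb1 and Itgb5 all lay at most 1.11-fold from equal level. Because each group had 1 library, the spread between cultures is unknown. None of these differences therefore has a replicate check or a test, and no p-value is given. The 95% intervals below cover the counting error of reads only, and reads amplified without molecular identifiers are not independent molecules.

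The promoters of the 3 genes with the largest ratios in size are shown so that the letters before the members that differed most can be set side by side. They are the 250 bases before the RefSeq start, on GRCm38.p6, printed 5′ to 3′ on the gene's own strand. Capitals mark matches to the motifs searched, on either strand.
Itga3, chr11:95076715-95076964, minus strand: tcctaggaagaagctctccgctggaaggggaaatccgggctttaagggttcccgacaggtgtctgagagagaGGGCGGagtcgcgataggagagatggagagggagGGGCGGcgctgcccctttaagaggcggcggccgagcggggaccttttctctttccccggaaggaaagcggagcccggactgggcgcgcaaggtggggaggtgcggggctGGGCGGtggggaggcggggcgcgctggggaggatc
Itga1, chr13:115101965-115102214, minus strand: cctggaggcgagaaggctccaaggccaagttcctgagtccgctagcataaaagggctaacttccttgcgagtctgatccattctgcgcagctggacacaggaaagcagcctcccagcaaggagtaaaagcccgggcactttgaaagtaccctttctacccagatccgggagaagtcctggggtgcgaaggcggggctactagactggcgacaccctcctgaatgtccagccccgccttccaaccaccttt
Itga2, chr13:114932101-114932350, minus strand: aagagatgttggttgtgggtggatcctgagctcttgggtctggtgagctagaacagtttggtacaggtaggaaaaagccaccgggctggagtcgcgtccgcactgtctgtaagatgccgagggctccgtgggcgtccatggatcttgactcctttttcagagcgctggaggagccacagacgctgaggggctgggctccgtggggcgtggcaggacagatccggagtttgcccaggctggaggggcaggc
The 3 motifs searched were the AP-1 site TGANTCA, the GC box GGGCGG and the TATA box TATAAA, and no matches in the member windows overlapped. The printed Itga3 promoter held 3 GC boxes, and those of Itga1 and Itga2 held none of the 3 motifs. Among 32851 RefSeq promoter windows of the same length, 32.7% held a GC box, 12.4% the TATA box and 6.75% the AP-1 site. The C and G content depended on the start taken for Itga3. The printed window, at the start nearest to the outer end of the gene in GENCODE, had 67.6% and 22 CG pairs. Part of it lay inside the GENCODE gene, whose outer end is at 95076801, while the printed Itga1 and Itga2 windows lay outside theirs. The window of the further RefSeq start, at chr11:95069199-95069448 inside the gene, had 50.8%, 5 CG pairs and 1 GC box. Itga1 had 57.6% and 10 CG pairs and Itga2 60.8% and 12, between both Itga3 windows. The median over all windows was 52.4%. RefSeq windows were found for 9 of the 10 genes, and Itgb3 had none in the table used. GC boxes were also present before Itga5, Itgb1 and Itgb5, and no member window held the AP-1 or TATA letters. A match is a description of the letters only.

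Levels were compared between genes per exon length, in TPM, a unit of transcript abundance. Counts were divided by exon length and scaled so that all genes of a library sum to 1000000. Itgb1 was by far the most abundant, at 1265 TPM in the Sparcl1 library and 1380 TPM in the PBS control. Itgb5 followed at 552 TPM with Sparcl1 and 582 with PBS. Itga11, the subunit that binds fibrillar collagen on fibroblast-like cells, stood at 166 TPM with Sparcl1 and 170 TPM with PBS. Itgav had 147 TPM with Sparcl1 and 155 with PBS, and Itga5 142 with Sparcl1 and 158 with PBS. Itga3 had 136 TPM with Sparcl1 and 97.9 with PBS. Lower on the scale came Itga1, at 36.0 TPM with Sparcl1 and 46.6 with PBS, and Itga10, at 16.0 with Sparcl1 and 13.1 with PBS. Itgb3 had 4.10 TPM with Sparcl1 and 3.58 TPM with PBS, and Itga2 had 2.23 TPM with Sparcl1 and 3.02 with PBS. Beta subunits thus led the scale, and the rarest members were a collagen-binding alpha and Itgb3.

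**Figure D1:**
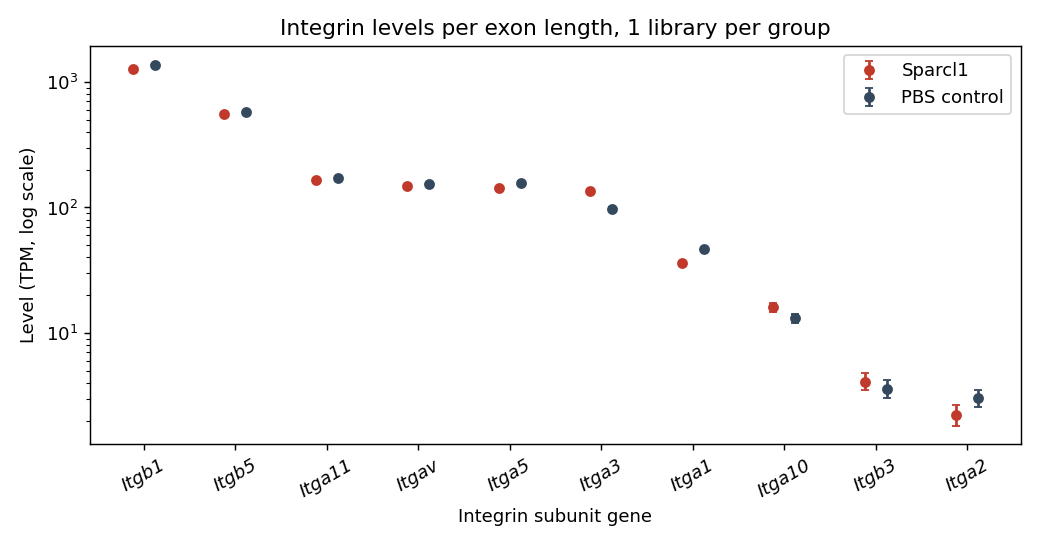
Level of each integrin gene in TPM on a log axis, ordered by the Sparcl1 library, with 95% counting intervals that are mostly smaller than the points (1 library per group). The genes run from Itgb1 at 1265 TPM to Itga2 at 2.23 TPM in the Sparcl1 library.

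The order of the 10 levels was nearly the same in both libraries. In the Sparcl1 library the neighbours Itgav and Itga5, and Itga5 and Itga3, had overlapping counting intervals. In the PBS control Itga5 and Itgav overlapped, and so did Itgb3 and Itga2, while Itga3 lay clearly below Itgav. The length used matters for the upper alpha subunits. With the longest annotated transcript as length, Itgav was the most abundant alpha subunit, at 173 TPM with Sparcl1 and 182 TPM with PBS. Itga11 then stood at 132 TPM with Sparcl1 and 136 with PBS. Itga1 has 18599 exon bases in all annotated transcripts but 10967 in its longest, and was at 47.1 TPM with Sparcl1 and 61.0 with PBS by that length.

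Among the collagen-binding alpha subunits, the 4 genes did not move as a set. Itga1 had 4593 counts in the Sparcl1 library and 6434 in the PBS control. Its log2 ratio of scaled counts, Sparcl1 over PBS control, was -0.37 (95% counting interval -0.42 to -0.31). Itga2, a collagen receptor subunit best known from platelets and epithelia, had 109 counts with Sparcl1 and 160 with PBS (-0.44, -0.80 to -0.08). Both were lower in the Sparcl1 library, but the size for Itga2 is poorly fixed because its counts are few. Itga10 had 571 counts with Sparcl1 and 503 with PBS (0.30, 0.12 to 0.48) and so went the other way. Itga11 had 5840 counts with Sparcl1 and 6495 with PBS (-0.04, -0.09 to 0.02), and its interval included equal level. The median log2 ratio of the 4 genes was -0.20.

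Comparisons between members of the same library do not depend on how the libraries are scaled, and were made for all 45 pairs. There were 8.04 counts of Itga1 for each count of Itga10 in the Sparcl1 library, against 12.8 in the PBS control. The log2 ratio of Itga1 lay 0.67 below that of Itga10 (difference -0.67, 95% counting interval -0.85 to -0.49), and 0.33 below that of Itga11 (-0.33, -0.41 to -0.26). Itga1 and Itga2 were not told apart (0.07, -0.29 to 0.42).

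The fibronectin and RGD-binding alpha subunits differed little. Itga5, of the classical fibronectin receptor, had 4803 counts in the Sparcl1 library and 5792 in the PBS control (log2 ratio -0.15, -0.21 to -0.10). Itgav had 10859 counts with Sparcl1 and 12348 with PBS (-0.07, -0.11 to -0.03). Both intervals lay below equal level, and the larger difference, that of Itga5, was 1.11-fold.

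Itga3, the laminin receptor subunit, had the highest ratio of the members. It had 5336 counts in the Sparcl1 library and 4156 in the PBS control, a log2 ratio of 0.48 (0.42 to 0.54). Within the libraries there were 1.11 Itga3 counts for each Itga5 count with Sparcl1, against 0.718 with PBS (difference of log2 ratios 0.63, 0.55 to 0.71). Against Itgb1, its beta partner, the difference was 0.60 (0.54 to 0.66). The intervals of Itga3 against Itga10 (-0.0049 to 0.36) and Itgb3 (-0.04 to 0.60) included 0.

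The beta subunits were close to equal level. Itgb1, the shared partner of most alpha subunits here, had 35447 counts in the Sparcl1 library and 41845 in the PBS control (log2 ratio -0.12, -0.14 to -0.10). Itgb5, an RGD receptor subunit, had 13461 counts with Sparcl1 and 15376 with PBS (-0.07, -0.11 to -0.04). Itgb3, the other main partner of Itgav and an osteoclast and platelet integrin, had 166 counts with Sparcl1 and 157 with PBS (0.20, -0.13 to 0.52). A difference in Itgb3 was not detectable at this depth.

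**Figure D2:**
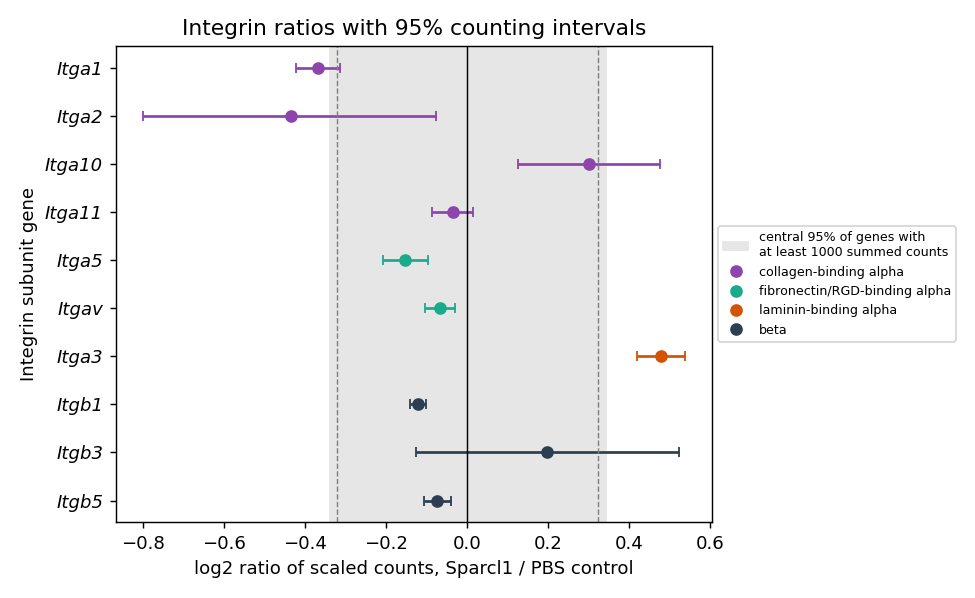
Log2 ratio of scaled counts, Sparcl1 over PBS control, for each integrin gene with its 95% counting interval (1 library per group). Dashed lines mark log2 ratios of 0.32 in size and the grey band the central 95% of genes with at least 1000 summed counts, -0.34 to 0.34. Itga3 lies to the right of the band, and Itga1 and Itga2 lie to its left.

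Read against all 13317 genes with at least 20 summed counts, the 10 genes were spread over most of the range. Of all genes, 5.55% had a lower ratio than Itga2, the lowest member, and 95.1% a lower ratio than Itga3, the highest. A gene passed the 2-fold rule when its log2 ratio was 1 or more away from 0 and its counting interval did not reach 0. No member passed it in either direction, where 0.954% of all genes were higher and 0.946% lower. A small-fold rule, with the limit at a log2 ratio of 0.32 in size and the same condition on the interval, took 1 member as higher, Itga3, and 2 as lower, Itga1 and Itga2, against 5.97% and 5.77% of all genes. Of the members, 7 of 10 had a ratio below 1, against 50.4% of all genes, and their median log2 ratio was -0.07, against -0.0019 over all genes. Scaled to Itgb1 in place of all genes, 3 of the other 9 had a ratio below 1. That scaling raised the log2 ratio of every gene by 0.12, so the 50.4% does not apply to it. All-gene shares are given for the main scaling only. Itga2 at -0.44 and Itga1 at -0.37 lay just past this limit, and Itga10 at 0.30 lay just short of it. With total counts as library sizes Itga10 was at 0.33 and passed, so that 2 members were higher.

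Rare genes scatter widely, so Itga1 and Itga3 are better set beside genes of high abundance. Among 8068 genes with at least 1000 summed counts, 6.23% passed the small-fold rule in either direction, with 3.16% higher and 3.07% lower. Their central 95% of log2 ratios ran from -0.34 to 0.34. Itga3 at 0.48 and Itga1 at -0.37 lay outside that range, and the other 6 members of this abundance inside it.

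**Figure D3:**
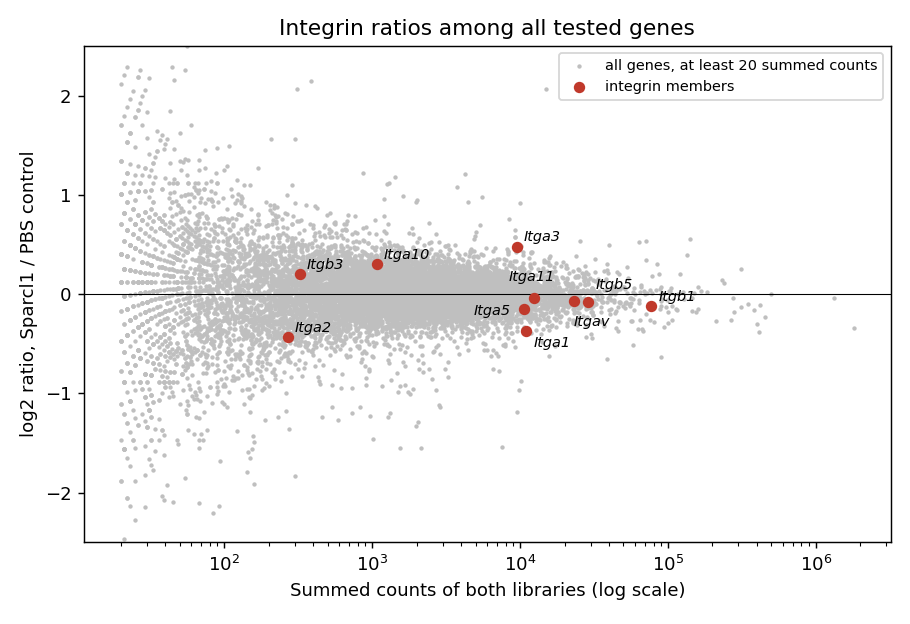
Log2 ratio, Sparcl1 over PBS control, against summed counts on a log axis, with all genes of at least 20 counts in grey and the integrins in red. Itga3 lies above and Itga1 below most genes of like abundance, and 14 genes fall outside the plotted range.

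Since integrins work as pairs, the makeup of the alpha pool was described as each gene's share of the summed TPM of the 7 alpha members. That sum was 645 TPM with Sparcl1 and 644 TPM with PBS. Itga3 made up 21.1% of it in the Sparcl1 library and 15.2% in the PBS control. Itga5 made up 22.0% with Sparcl1 and 24.6% with PBS, and Itgav 22.8% with Sparcl1 and 24.0% with PBS. Itga11 took 25.7% with Sparcl1 and 26.5% with PBS, and Itga1 5.58% with Sparcl1 and 7.23% with PBS. Itga10 took 2.49% with Sparcl1 and 2.03% with PBS, and Itga2 0.345% with Sparcl1 and 0.469% with PBS. The 4 collagen-binding subunits together made up 34.1% with Sparcl1 and 36.2% with PBS, and Itga5 and Itgav together 44.8% with Sparcl1 and 48.6% with PBS. The share of Itga3 was thus 5.88 percentage points larger in the Sparcl1 library, or 5.74 points with the longest transcript as length. Itgb1 stood at 1.96 times the alpha sum in the Sparcl1 library and 2.14 times in the PBS control. With the longest transcript as length, Itgb1 stood at 1.71 times with Sparcl1 and 1.85 times with PBS. By that length Itgav, in place of Itga11, had the largest alpha share, 28.3% with Sparcl1 and 29.5% with PBS. RNA shares say nothing of the amount of receptor at the cell surface.

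**Figure D4:**
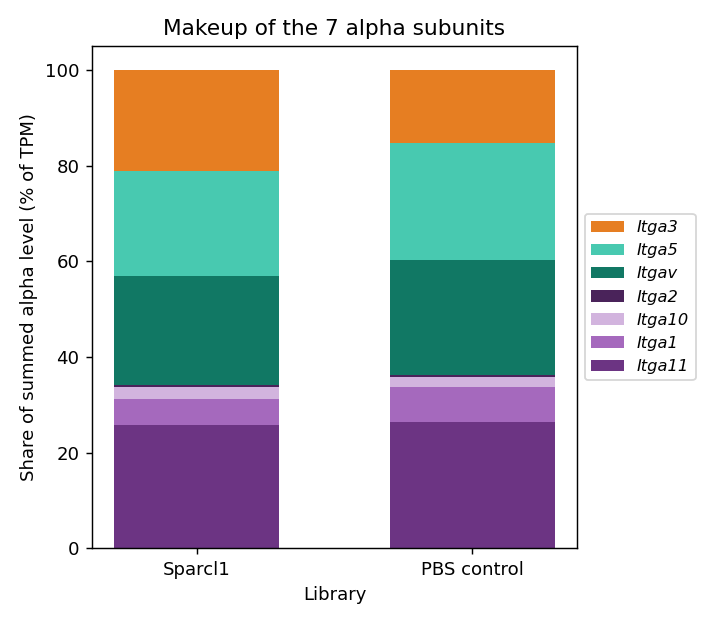
Share of each alpha subunit in the summed level of the 7 alpha members, in percent of TPM, for the Sparcl1 and PBS control libraries. The Itga3 share is 21.1% with Sparcl1 and 15.2% with PBS.

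Itga1 and Itga2 are neighbours on mouse chromosome 13, both on the minus strand. On GRCm38, Itga1 spans 114953096 to 115101964 and Itga2 114833081 to 114932100, with 20995 bases between them. Their shared position was looked at after their values were seen. Mocs2, an enzyme gene of molybdenum cofactor synthesis that lies 805 bases from Itga2, had 1071 counts with Sparcl1 and 1310 with PBS (log2 ratio -0.17, -0.29 to -0.06). Pelo, a ribosome rescue factor gene that lies inside Itga1 on the same strand, had 426 counts with Sparcl1 and 335 with PBS (0.46, 0.25 to 0.67). Fst, which encodes the activin antagonist follistatin and lies farther along, had 6461 counts with Sparcl1 and 6921 with PBS (0.02, -0.03 to 0.07). The genes of this stretch thus did not share a direction. Pelo shares no exon base with Itga1 in the annotation. Itga3 lies on chromosome 11 at 95044474 to 95076801, and the genes near it did not share a direction. Pdk2, a mitochondrial kinase gene 3119 bases away, was at -0.15 (-0.28 to -0.0077) and Samd14 at 0.08. Ppp1r9b, 37574 bases away, was at 0.16 (0.10 to 0.22), and Col1a1, 91431 bases away, was at -0.38.

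The counts of some members could be affected by overlapping genes. In GENCODE M21, Itga10 (chromosome 3, 96645584 to 96664519) shares 1739 of its 5186 exon bases with the protein-coding gene model Gm42957, which had 0 counts with Sparcl1 and 5 with PBS. Itga1 shares 685 bases with Gm49395, which had no counts, and Itgav (chromosome 2, 83724397 to 83806916) 634 bases with Gm13684 on the opposite strand. How the counting step treated such reads is not stated in the labels, and their part in the levels was not tested. On the same assembly Itga5 lies on chromosome 15 at 103344286 to 103366763, Itga11 on chromosome 9 at 62677826 to 62783982 and Itgb1 on chromosome 8 at 128685654 to 128733200. Itgb3 lies on chromosome 11 at 104608000 to 104670476 and Itgb5 on chromosome 16 at 33829665 to 33949338.

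The other 16 integrin subunits were mostly rarer. Of these, 14 had at least 20 summed counts, 3 were higher and 1 lower by the small-fold rule, against 5.97% higher and 5.77% lower over all genes, and the median log2 ratio was 0.08. The same all-gene shares stand behind each list count by this rule in the main scaling. They do not apply to list counts by total counts or scaled to Itgb1, for which no all-gene share is given. Scaled to Itgb1, 4 were higher and 0 lower. The most abundant were the leukocyte subunits Itgb2, at 4635 counts with Sparcl1 and 4803 with PBS (0.07), and Itgal, at 1805 with Sparcl1 and 1849 with PBS (0.08). Itga6, another laminin receptor subunit, had 1668 counts with Sparcl1 and 1393 with PBS and was higher (0.38, 0.27 to 0.48). So was Itgam, of the myeloid complement receptor, with 585 counts with Sparcl1 and 465 with PBS (0.45, 0.27 to 0.63). Itgb4, the hemidesmosome partner of Itga6, was higher too, with 131 counts with Sparcl1 and 106 with PBS (0.42, 0.04 to 0.81). Itga9, a tenascin receptor subunit, had 199 counts with Sparcl1 and 279 with PBS and was lower (-0.37, -0.64 to -0.10). Itga4 had 448 counts with Sparcl1 and 566 with PBS (-0.22). Itgad was listed at 0 in both libraries.

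The collagens that these receptors bind had ratios below 1 throughout. Of 13 collagen chain genes 13 were below 1, against 50.4% of all genes. By the small-fold rule 5 were lower and none was higher, with a median log2 ratio of -0.27. With total counts as library sizes 3 were lower, and scaled to Itgb1 11 genes were below 1 and none was lower by the rule. In the main scaling 5.77% of all genes were lower by it. Col1a1 was at -0.38, Col4a1 of basement membranes at -0.38 (1675 counts with Sparcl1 and 2364 with PBS), Col11a1 at -0.37, Col9a1 at -0.34 and Col4a2 at -0.32. Col2a1, the main cartilage collagen, had 199410 counts with Sparcl1 and 254556 with PBS (-0.24) and Col1a2 172114 with Sparcl1 and 229466 with PBS (-0.30). Col6a1 and Col6a2, of the pericellular collagen, were nearest to equal level at -0.05 and -0.06.

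Ligands of the fibronectin and RGD type were mixed. Of 14 measured genes 1 was higher and 4 lower by the small-fold rule, against 5.97% higher and 5.77% lower over all genes, with a median log2 ratio of -0.15. With total counts 3 were lower, and scaled to Itgb1 2 were. Fn1, which encodes fibronectin, had 629977 counts with Sparcl1 and 701344 with PBS (-0.04). Thbs1, which encodes the matricellular protein thrombospondin, had 760679 counts with Sparcl1 and 1047168 with PBS (-0.34). Spp1, which encodes osteopontin, had 80589 counts with Sparcl1 and 59409 with PBS and was the higher gene (0.56, 0.54 to 0.57). Ibsp, the bone sialoprotein gene, was at -0.62, the periostin gene Postn at -0.51 and the growth factor gene Tgfb3 at -0.37. The nephronectin gene Npnt was at 0.18 (481 counts with Sparcl1 and 462 with PBS), and the vitronectin gene Vtn was listed at 0 in both libraries. Laminin chain genes had 9 measured members with a median of -0.0021, none past the rule. Scaled to Itgb1, which raised the log2 ratio of every gene by 0.12, 3 of them were higher by the rule and the median was 0.12. Lamb2 had 14844 counts with Sparcl1 and 16806 with PBS (-0.06), Lamc1 4643 with Sparcl1 and 5043 with PBS (-0.0021), and Lamb1 2656 with Sparcl1 and 2455 with PBS (0.23). The rare Lamb3 was at 0.27, Lama3 at -0.34 and Lama2 at -0.09, all with intervals that included 0.

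**Figure D5:**
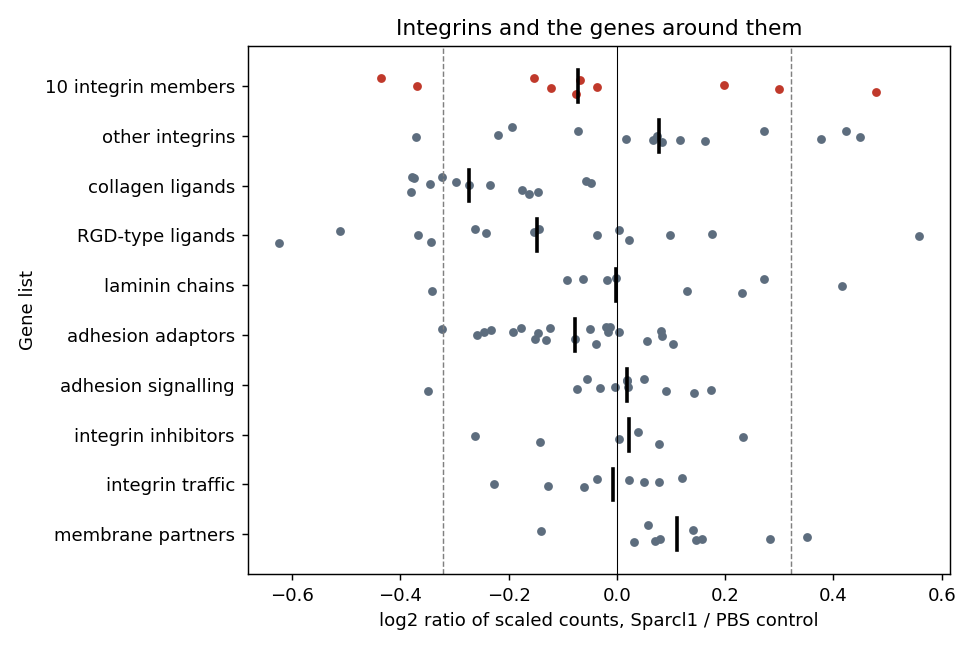
Log2 ratio, Sparcl1 over PBS control, of each measured gene in the integrin set and in 9 related lists (1 library per group). Thick bars are list medians and dashed lines mark log2 ratios of 0.32 in size. The collagen ligand median is -0.27 and the integrin median -0.07.

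Downstream of the receptors, adhesion adaptor genes lay near equal level. Of 21 measured genes 16 had a ratio below 1, against 50.4% of all genes, and 10 had when scaled to Itgb1. By the small-fold rule none was higher and 1 lower, with a median log2 ratio of -0.08. The lower gene was Vcl, which encodes vinculin, with 6906 counts with Sparcl1 and 9375 with PBS (-0.32, -0.37 to -0.28). With total counts it did not pass. Tln1, the talin that switches integrins on, had 18757 counts with Sparcl1 and 22587 with PBS (-0.15). Zyx, which encodes zyxin, had 22846 counts with Sparcl1 and 26980 with PBS (-0.12), and the paxillin relative Tgfb1i1 3121 with Sparcl1 and 4048 with PBS (-0.26). The actin crosslinker gene Actn4 was at 0.10 and Vasp, an actin polymerase gene, at 0.08. Ilk, which encodes integrin-linked kinase, had 4 counts with Sparcl1 and 0 with PBS. It shares 2106 of its 2744 exon bases with Taf10 on the opposite strand, and its level cannot be read from this table.

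Adhesion signalling genes had 1 of 12 members past the small-fold rule. It was the docking protein gene Nedd9, with 1676 counts with Sparcl1 and 2314 with PBS (log2 ratio -0.35, -0.44 to -0.26). With total counts it did not pass. The focal adhesion kinase gene Ptk2 was at -0.07 and its relative Ptk2b at 0.02. The kinase genes Src and Csk were at 0.17 and 0.14, and the adaptor genes Bcar1 and Crk at 0.05 and -0.0036. The list median was 0.02.

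Genes that hold integrins back or move them had medians near equal level, and most membrane partners were above it. None of 6 inhibitor genes passed the small-fold rule (median log2 ratio 0.02), and 1 was higher by it when scaled to Itgb1. The filamin genes Flna, with 46054 counts with Sparcl1 and 59927 with PBS, and Flnc were at -0.26 and 0.04, Dok1 at 0.23 and Sharpin at 0.08. None of 8 traffic genes passed (median -0.01). The caveolin gene Cav1 was at -0.23, Rab21 at -0.13, Dab2 at -0.06, Arf6 at 0.12 and Rab11a at 0.08. Of 10 membrane partner genes 9 had a ratio above 1 and 1 below it, where 50.4% of all genes were below 1. The median log2 ratio of the partners was 0.11. By the small-fold rule 1 was higher, and 2 were when scaled to Itgb1. The higher gene in the main scaling was the urokinase receptor gene Plaur, with 1485 counts with Sparcl1 and 1262 with PBS (0.35, 0.24 to 0.46). Sdc1, of the syndecan co-receptors, was at 0.28, Cd81 at 0.16, Sdc4 at 0.14, Bsg at 0.07, Cd151 at 0.03 and Slc3a2 at -0.14.

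In bulk libraries fewer cells of a type and less RNA per cell cannot be told apart. Chondrocyte markers were present, with 10 of 10 detected and a summed level of 11726 CPM (scaled counts per 1000000) with Sparcl1 and 13378 CPM with PBS. Of these, 6 were lower by the small-fold rule, against 5.77% of all genes, with 4 lower by total counts and 3 when scaled to Itgb1. The median log2 ratio was -0.35. Col2a1, Col9a1 and Col11a1 stand both in this list and among the collagens above, so the lists are not separate. Comp, a cartilage matrix glycoprotein gene, was at 0.03, Snorc at 0.16, Matn3 at -0.75 and Chad, which encodes the integrin-binding protein chondroadherin, at -0.86 (61 counts with Sparcl1 and 120 with PBS). Macrophage markers were also detected for 12 of 12 genes, at 2625 CPM with Sparcl1 and 2308 with PBS. Most of that sum was Lyz2, at 1640 CPM (44617 counts) with Sparcl1 and 1327 CPM (39139 counts) with PBS. Of the 12 genes 6 were below 1, against 50.4% of all genes, and the median log2 ratio was 0.01. By the small-fold rule 2 were higher and 1 lower, and 4 were higher and 1 lower when scaled to Itgb1. The receptor genes Csf1r and Adgre1 were at -0.05 and -0.0017, Mrc1 at 0.33, Ptprc at -0.19 and Fcgr1 at -0.61. Fibroblast markers were detected for 8 of 8, at 16976 CPM with Sparcl1 and 21068 with PBS. Of these, 6 were below 1, against 50.4% of all genes. By the small-fold rule 2 were lower (1 lower and 1 higher when scaled to Itgb1), with a median log2 ratio of -0.25. The 2 lower genes, Col1a1 and Postn, were already counted in the ligand lists above. Postn was at -0.51, Col1a1 at -0.38, Dpt at -0.31, Lum at -0.20 and Col3a1 at -0.18, while Thy1 was at 0.04 and Pdgfra at 0.31. Smooth muscle markers summed to 795 CPM with Sparcl1 and 1212 CPM with PBS. Acta2, Tagln and Cnn1 were at log2 ratios of -0.65, -0.52 and -0.42. The more specific markers Myh11, Des and Myocd had at most 16 counts in either library. Osteoclast markers, whose cells use Itgb3, summed to 152 CPM with Sparcl1 and 145 with PBS, mostly from Ctsk and Nfatc1, and Calcr was listed at 0. Endothelial markers summed to 5.18 CPM with Sparcl1 and 7.83 with PBS, with Cldn5 and Tie1 at 0 with Sparcl1 and 1 count each with PBS. The part of these cell types in the integrin ratios was not tested.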

How the data were processed

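Gene expression was measured by RNA sequencing of total RNA in 2 libraries, 1 of Sparcl1-treated chondrocytes and 1 of the PBS control. The authors deposited raw read counts by gene symbol in 1 table, with a column for each library. HTSeq, STAR, FastQC and Trimmomatic are named, with build mm10, per the submitters' processing notes. Their versions, the annotation, the strand setting and the handling of multiply matched reads are not given in the sources used here. In 26 entries the symbol had become a calendar date; they stayed in the totals.

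Counts were scaled with TMM factors from edgeR 4.0.16 in R 4.3.3 (1.01 for Sparcl1 and 0.988 for PBS). A ratio has an exact 95% Clopper-Pearson interval on the Sparcl1 part of a gene's counts, and a difference between genes a normal interval on log counts. In lists, a count of 0 in 1 library enters as 3 counts. Positions and exon lengths come from GENCODE M21 (GRCm38), matched by symbol for 21900 of 21983 genes. Promoters come from RefSeq on GRCm38.p6. Python 3.11.15 with numpy 2.4.6, pandas 2.3.3, scipy 1.17.1 and matplotlib 3.10.9 was used. The members and lists were chosen with earlier results of these data known. Named genes are the members and, per list, the 3 most abundant, the 2 highest and 2 lowest with at least 100 summed counts, and others given as examples; 2 were matched by older symbols. Some genes of these lists are not reported here. Alternatives were other scalings (total counts, DESeq2 1.42.0, upper quartile, Itgb1), a prior count of 2, count filters, other fold limits, the mean and another length. The steps were tested on simulated data for Sparcl1 over PBS with counting error only: over 13306 genes, 95.6% of intervals held the true ratio. The small-fold rule recovered 93% of 100 genes changed by log2 0.5 and took 143 unchanged genes, and the 2-fold rule recovered 100% of 100 changed by log2 1.5 and took 34.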

Additional observations from a re-analysis of the deposited data

How the results depend on the processing

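With total counts, DESeq2 size factors, upper-quartile factors or a prior count of 2, each of the 10 members kept the sign of its log2 ratio. Total counts moved the median of all genes by 0.03 and raised the members higher by the small-fold rule to 2. Scaling to Itgb1 moved the median of all genes by 0.12. By that scaling 2 members were higher by the small-fold rule (Itga3 and Itga10), 0 lower, and 3 of 9 below 1 (Itga1, Itga2 and Itga5). The median was then 0.054 over those 9 members and -0.080 over the collagen-binding subunits; Itga3 stood at 0.60, Itga1 at -0.25 and Itga2 at -0.31. The mean in place of the median was -0.028. No member passed the 2-fold rule under any scaling or count filter tried. Limits of 1.5-fold and 3-fold were tried in the main scaling only, and no member passed them there. No paired analysis was possible because each group had 1 library, and for the same reason no library could be left out. Depth limits Itga2 and Itgb3, with 269 and 323 summed counts.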

Other observations

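The subunits best known from laminin receptors were looked at together after their values had been seen. Itga3 (log2 ratio 0.48), Itga6 (0.38) and Itgb4 (0.42, from 131 counts with Sparcl1 and 106 with PBS) were higher by the small-fold rule in the Sparcl1 library. Itga7, with 562 counts with Sparcl1 and 641 with PBS, was at -0.07, with an interval of -0.24 to 0.09. The collagen-binding Itga1 and Itga2 were the members lower by that rule, and none was lower when scaled to Itgb1. The other collagen-binding subunits did not share that direction, with Itga10 at 0.30 (0.12 to 0.48) and Itga11 at -0.04 (-0.09 to 0.02). Itgb1, the beta partner of Itga3, was at -0.12. Itga3, Itga6 and Itgb4 were picked by their values, so the direction they share is a description of these 2 libraries.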
